A study of Mus musculus with 20 samples.

Results

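A set of 6 nuclear genes that act at the mitochondrion and belong to the cell's answer to low oxygen were followed in embryonic mouse hearts lacking Kmt2d, a histone H3 lysine 4 methyltransferase. They were Bnip3, Bnip3l, Higd1a, Cox4i2, Ndufa4l2 and Fundc1, which are 6 of the 33495 genes in the deposited table, and all 6 were found by symbol. The 6 genes were chosen by their mutant-against-control values in these same libraries, so their differences between mutant and control are given as a description with no test. Tests are given only for the comparisons by stage and by tissue and for other genes. The lists of other genes were also chosen with earlier results of these data known, so their tests are not independent of that choice.

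RNA-seq was performed on 20 libraries of C57BL/6 embryonic hearts in 6 groups. Every embryo carried a Cre transgene and 1 copy of the mTmG reporter, and controls were Cre; Kmt2d fl/+; mTmG/+, so that they too had 1 floxed allele, whereas mutants were Cre; Kmt2d fl/fl; mTmG/+. Mesp1Cre, which acts in early mesoderm, gave 4 control and 4 mutant libraries from whole hearts with the stage label E9.0, although the harvest protocol attached to them names E11.5. Tnnt2::Cre, which acts in cardiomyocytes, gave 3 and 3 libraries from E11.5 whole hearts. Mef2cAHF::Cre, which acts in the anterior heart field, gave 3 and 3 libraries from the E11.5 right ventricle and outflow tract. The labels do not say how many embryos went into a library, so the spread between libraries may be in part technical.

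Library totals ran from 21727258 to 45341870 counts, and levels are given as counts-per-million (CPM) scaled by TMM over the 20 libraries. The targeted gene, listed as Mll2, stood at 133 ± 7.14 CPM (SD, n = 4) in Mesp1Cre mutants against 156 ± 5.52 (n = 4) in controls, and at 118 ± 4.28 (n = 3) in Tnnt2::Cre mutants against 150 ± 20.8 (n = 3), without overlap in either line (edgeR quasi-likelihood test, FDR = 0.0764 and 0.327, not called at 0.05). In Mef2cAHF::Cre it went against the labels, with 185 ± 3.72 CPM (n = 3) in the libraries labelled mutant and 149 ± 5.72 (n = 3) in those labelled control (FDR = 0.0359). The column headers of the count table also give these 6 libraries the opposite genotypes to their titles. Their groups are therefore called "labelled mutant" and "labelled control", and the fold changes of the 6 genes are given under both readings. Other mutant-against-control values of this line are by the labels, and have the opposite sign by the column names.

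When oxygen is short, the hypoxia-inducible factors HIF-1 and HIF-2 escape degradation and bind DNA at hypoxia-response elements, whose core letters are ACGTG or GCGTG. Some of the genes they switch on change what mitochondria do: they exchange subunits of the respiratory chain, hold back the entry of pyruvate, and mark mitochondria for removal by autophagy, which is called mitophagy. Bnip3 and Bnip3l (also called Nix) are receptors on the outer mitochondrial membrane that bind LC3-type proteins of the autophagosome, and Bnip3l is also needed to clear mitochondria from maturing red blood cells. Fundc1 is another receptor of this kind and is known to be switched on in hypoxia by changes in its phosphorylation. Higd1a is an inner-membrane protein that associates with the respiratory chain, Cox4i2 is the alternative isoform of a subunit of cytochrome c oxidase (complex IV), and Ndufa4l2 is a relative of Ndufa4 that holds down oxygen consumption in hypoxia.

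In mm9, the build of the counts, the genes lie at chr7:146082519-146101202 (Bnip3, minus strand), chr14:67604076-67627714 (Bnip3l, minus), chr9:121758657-121766722 (Higd1a, minus), chr2:152579909-152590773 (Cox4i2, plus), chr10:126952034-126954208 (Ndufa4l2, plus) and chrX:17133690-17149451 (Fundc1, minus). All 6 are protein-coding. Ndufa4l2 shares 14 exonic bases with Shmt2 on the opposite strand, and the other 5 overlap no annotated gene. Stretches of at least 100 bases with at least 95% identity to the coding sequence lie elsewhere in the genome for Bnip3 (3 stretches), Bnip3l (2) and Higd1a (1), so how the read counting treated reads that match several places could affect those 3 genes. Their promoters, from 250 bases before to 50 bases after the start site in RefSeq (GRCm38.p6, a later build than that of the counts), are shown because they hold different numbers of the hypoxia-response core. Of the 6 genes, 3 had a promoter sequence in the reference used, on the minus strand of chr7:138909457-138909756 (Bnip3), chr9:121857747-121858046 (Higd1a) and chrX:17571958-17572257 (Fundc1). They are printed 5′ to 3′ in lower case, and capitals mark ACGTG and GCGTG on either strand, read as CACGT or CACGC on the opposite one.
Bnip3: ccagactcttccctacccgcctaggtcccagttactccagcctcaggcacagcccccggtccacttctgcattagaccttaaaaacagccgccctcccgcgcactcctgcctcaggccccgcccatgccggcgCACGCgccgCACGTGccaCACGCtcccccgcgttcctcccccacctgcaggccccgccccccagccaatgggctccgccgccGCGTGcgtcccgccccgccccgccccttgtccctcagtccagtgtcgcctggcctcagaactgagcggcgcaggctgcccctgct
Higd1a: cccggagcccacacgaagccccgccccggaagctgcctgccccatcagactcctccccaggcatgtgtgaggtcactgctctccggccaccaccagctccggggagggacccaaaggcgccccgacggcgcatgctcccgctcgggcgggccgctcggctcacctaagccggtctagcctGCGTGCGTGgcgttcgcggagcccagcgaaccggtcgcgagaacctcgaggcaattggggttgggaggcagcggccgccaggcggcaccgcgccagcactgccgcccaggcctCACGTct
Fundc1: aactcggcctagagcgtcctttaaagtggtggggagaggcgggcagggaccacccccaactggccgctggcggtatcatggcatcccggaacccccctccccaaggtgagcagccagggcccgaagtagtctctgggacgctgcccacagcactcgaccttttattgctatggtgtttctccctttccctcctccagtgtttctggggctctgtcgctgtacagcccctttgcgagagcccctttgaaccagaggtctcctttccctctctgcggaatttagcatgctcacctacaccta
The Bnip3 promoter held 5 matches, of which CACGT from position -108 and ACGTG from position -107 are the same palindrome read on both strands. The Higd1a promoter held 3, with overlapping GCGTG matches that share their G at position -66 and a CACGT from position 44. The Fundc1 promoter held 0. At least 1 match was present in 43.8% of the 32851 promoters of the reference and at least 2 in 20.6%. A match is a description of these letters, and binding was not measured here.

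In Mesp1Cre hearts, 5 of the 6 genes stood higher in every mutant library than in any control library. Bnip3 was 3.74-fold higher, Bnip3l 2.15-fold, Higd1a 2.48-fold, Cox4i2 4.92-fold and Ndufa4l2 18.1-fold, while Fundc1 had nearly the same level in both groups. Of all 15883 genes tested, 18.1% did not overlap between the groups in either direction, and 6.17% were called higher by edgeR at an FDR below 0.05. Since these values chose the 6 genes, nothing is read from their count.

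Bnip3 stood at 661, 432, 492 and 459 CPM in the 4 Mesp1Cre mutants and at 160, 158, 118 and 118 CPM in the 4 controls, a log2 fold change of 1.90 ± 0.14 (SE). The lowest mutant library thus lay far above the highest control. Bnip3l, the other BNIP3-type receptor, had 426, 318, 376 and 343 CPM in the mutants and 174, 175, 161 and 178 CPM in the controls, a log2 fold change of 1.11 ± 0.09. The controls of Bnip3l lay close together, with an SD of 7.38 CPM around 172.

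Higd1a, the respiratory-chain partner, had 107, 106, 99.7 and 100.3 CPM in the mutants and 51.4, 39.0, 38.4 and 39.5 CPM in the controls, a log2 fold change of 1.31 ± 0.10. Control replicate 1 stood apart above the other 3 controls. Cox4i2, the alternative complex IV subunit, had 22.6, 19.6, 17.9 and 16.9 CPM in the mutants and 3.68, 4.49, 3.48 and 4.19 CPM in the controls, a log2 fold change of 2.30 ± 0.17. Ndufa4l2 had 19.8, 11.54, 17.7 and 16.8 CPM in the mutants and 0.920, 0.371, 0.752 and 1.63 CPM in the controls, a log2 fold change of 4.18 ± 0.35. Its controls rested on 9 to 40 reads a library, so the denominator of this fold is the least certain of the 6. Fundc1 overlapped between the groups, at 14.3 to 17.1 CPM in the mutants and 15.2 to 18.3 CPM in the controls, with a log2 fold change of -0.07 ± 0.13. On log2(FPKM + 0.1), where the median of all genes was at 0.15, Fundc1 was at 0.09, so its sign turned with the scaling.

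**Figure D1:**
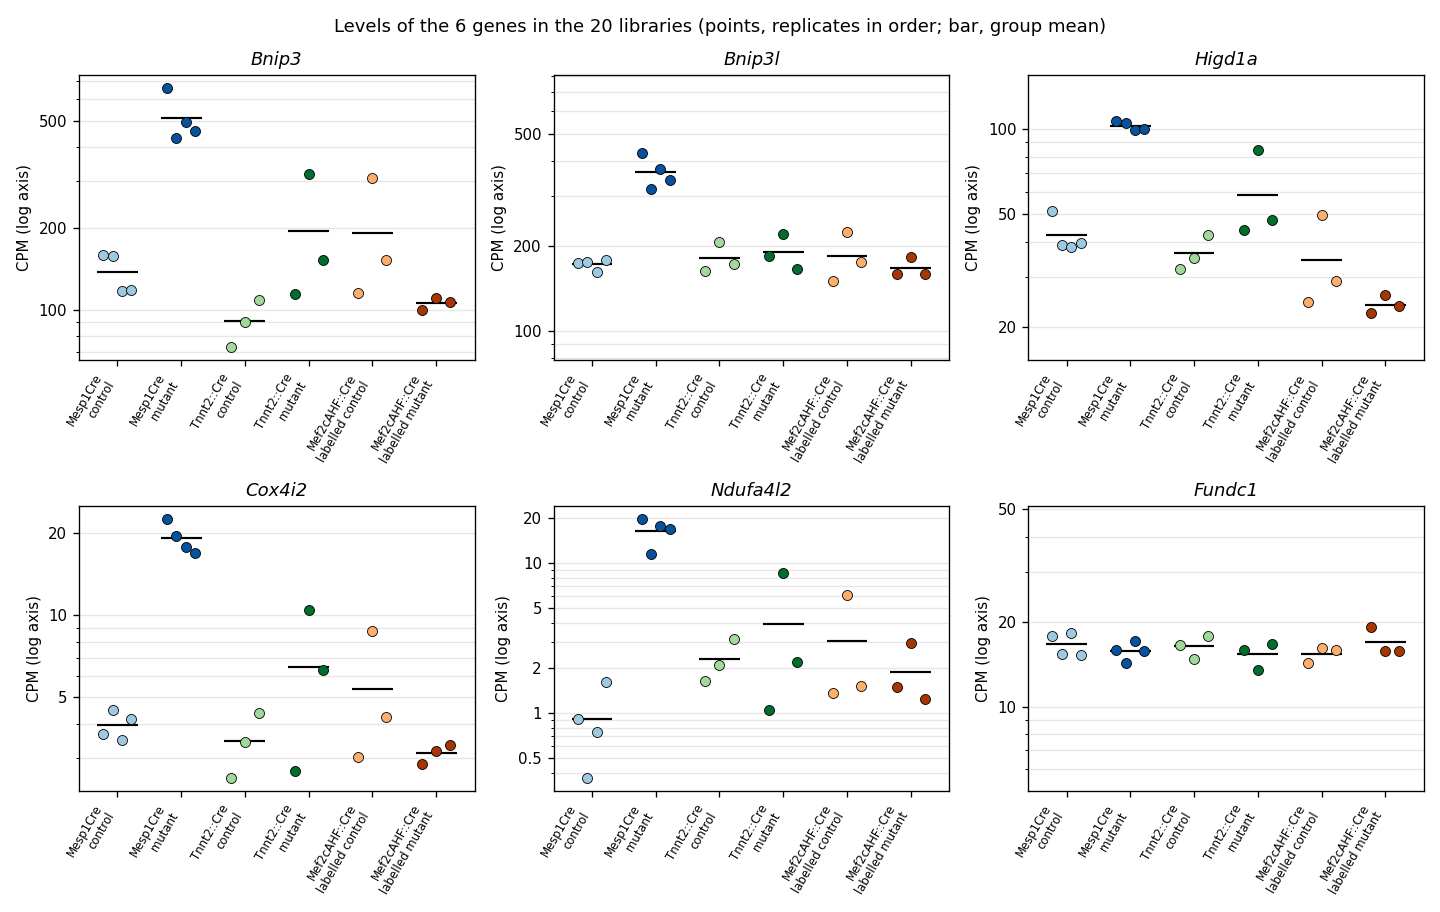
CPM (log axis) of each of the 6 genes in each of the 20 libraries, by group; points are single libraries in replicate order and bars are group means. For Bnip3, Bnip3l, Higd1a, Cox4i2 and Ndufa4l2 the 4 Mesp1Cre mutants lie above all 16 other libraries, whereas Fundc1 stays between 13.5 and 19.2 CPM in all 20.

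The 4 Mesp1Cre mutants were also the 4 highest of all 20 libraries for these 5 genes. Bnip3l ran from 318 to 426 CPM in them and from 150 to 225 CPM in the 16 others. The nearest other library was Tnnt2::Cre mutant replicate 2 for Bnip3 (318 CPM), Higd1a (84.6), Cox4i2 (10.4) and Ndufa4l2 (8.63), and Mef2cAHF::Cre labelled control replicate 2 for Bnip3l (225). The fold changes in Mesp1Cre kept their sign and most of their size when any 1 library was left out: Bnip3 ran from 1.77 to 1.99, Bnip3l from 1.04 to 1.18, Higd1a from 1.27 to 1.42, Cox4i2 from 2.22 to 2.37 and Ndufa4l2 from 3.92 to 4.59 on the log2 scale.

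Levels can be compared between genes only per length, which the deposited FPKM (fragments per kilobase of gene, scaled to library size) allow as far as the table's gene lengths hold. The table gives Higd1a 498 bases, whereas its exons in the annotation used here cover 1873 bases, so its FPKM depends on that choice. In Mesp1Cre controls the order was Higd1a (81.0 ± 11.0 FPKM, SD, n = 4), Bnip3 (58.4 ± 9.06), Bnip3l (42.8 ± 1.22), Fundc1 (6.86 ± 0.731), Cox4i2 (4.82 ± 0.512) and Ndufa4l2 (0.956 ± 0.547), and no neighbours in this order overlapped. In the mutants Bnip3 (245 ± 50.3 FPKM, n = 4) and Higd1a (224 ± 6.90) overlapped at the top, followed by Bnip3l (103 ± 13.8). Cox4i2 (26.5 ± 3.35) and Ndufa4l2 (19.4 ± 4.34) then both lay above Fundc1 (7.31 ± 0.612), which was ahead of both in the controls.

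Close relatives of 4 of these genes had other fold changes in Mesp1Cre than the genes themselves, and the differences within pairs were not tested. Cox4i1, the usual isoform of the complex IV subunit, stood at 242 ± 11.3 CPM in the mutant hearts of this line and at 258 ± 24.0 in its controls (n = 4 each, log2 fold change -0.08 ± 0.08, edgeR FDR = 0.573). Ndufa4 fell from 122 ± 6.04 to 97.6 ± 6.59 CPM (log2 fold change -0.30 ± 0.08, FDR = 0.0249). Higd2a was at 31.4 ± 3.09 CPM in mutants and 32.1 ± 4.58 in controls (log2 fold change -0.01 ± 0.13, FDR = 0.965). Fundc2 rose from 39.5 ± 2.43 to 48.9 ± 3.03 CPM (log2 fold change 0.33 ± 0.10, FDR = 0.0463). Of these 4 relatives, 1 was therefore called higher and 1 lower, and leaving out single libraries left 0 or 1 called by edgeR. It was 0 without control replicate 1 or 2 or mutant replicate 1 or 4, with 2 of the 4 at an unadjusted p under 0.05 in each of these fits. On FPKM the call of Ndufa4 was lost, and a block for the code in the library names left 1 call. With the erythroid or the sex covariate 0 were called, with 2 at an unadjusted p under 0.05 in each fit. Over all 15883 genes tested, 980 were called higher and 841 lower. Higd1b and Higd1c had too few reads to test, at 0.772 CPM or less in every Mesp1Cre library.

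The level of a gene beside that of its relative thus differed in the mutants. Cox4i2 FPKM was 1.33 ± 0.202% of Cox4i1 FPKM in Mesp1Cre controls and 6.86 ± 0.984% in mutants (n = 4 each). Ndufa4l2 was 0.402 ± 0.242% of Ndufa4 in controls and 9.01 ± 2.28% in mutants. Both remained minor transcripts beside their relatives. The ratio of Higd1a to Higd2a was 1.72 ± 0.229 in controls and 4.29 ± 0.274 in mutants, and that of Fundc1 to Fundc2 was 0.505 ± 0.0492 and 0.386 ± 0.0494. The mutant libraries did not overlap the controls in any of the 4 ratios. The numerator genes were chosen by their mutant-against-control values in these same libraries, so nothing is read from this count. Among all single genes tested in this line, 18.1% did not overlap in either direction, and no such share was worked out for ratios of arbitrary gene pairs.

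**Figure D2:**
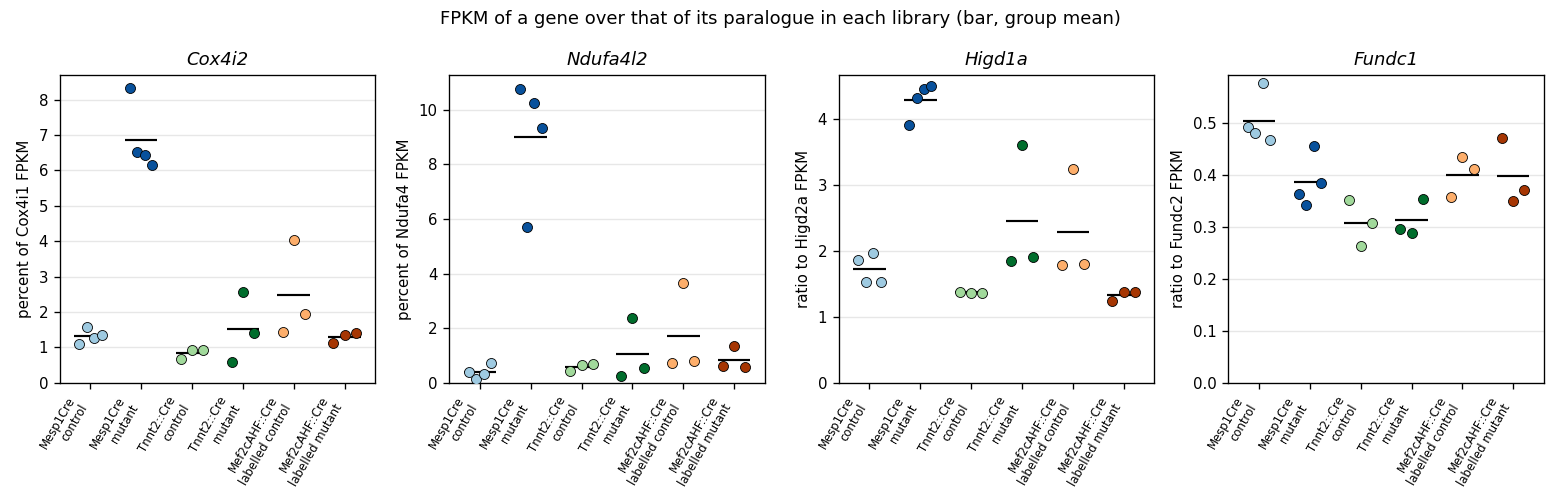
FPKM of Cox4i2, Ndufa4l2, Higd1a and Fundc1 over that of a relative of the same family, in each library (points) with group means (bars); the first 2 panels are in percent and the others are plain ratios, and all axes start at 0. The Mesp1Cre mutants stand highest for Cox4i2, Ndufa4l2 and Higd1a, and below the Mesp1Cre controls for Fundc1.

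In Tnnt2::Cre hearts, where Cre acts in cardiomyocytes, the same genes were scattered among the mutants. Bnip3 had 114, 318 and 152 CPM in the 3 mutants and 72.8, 90.4 and 108 CPM in the 3 controls, a log2 fold change of 1.11 ± 0.34 (SE). Higd1a had 43.9, 84.6 and 47.7 CPM in the mutants and 32.1, 35.0 and 42.3 CPM in the controls (log2 fold change 0.69 ± 0.24). The groups did not overlap for these 2 genes, but for both mutant replicate 2 stood well above the other mutants.

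The remaining 4 genes overlapped between Tnnt2::Cre mutants and controls. Cox4i2 had 2.70, 10.4 and 6.30 CPM in the mutants and 2.54, 3.42 and 4.39 in the controls (0.92 ± 0.43 on the log2 scale), and Ndufa4l2 had 1.06, 8.63 and 2.20 against 1.65, 2.09 and 3.12 (0.81 ± 0.66). Bnip3l had 185, 220 and 166 CPM in the mutants and 163, 207 and 173 in the controls (0.07 ± 0.14). Bnip3l was thus nearly level in this line, unlike in Mesp1Cre, and the difference between the lines was not tested. Fundc1 ran from 13.5 to 16.7 CPM in the mutants and from 14.8 to 17.8 in the controls (-0.09 ± 0.13).

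Of all 17045 genes tested in Tnnt2::Cre, 16.9% did not overlap between the groups and 0.293% were called by edgeR, and nothing is read from the count of the 6. Single mutant libraries set these values. Without mutant replicate 2, Bnip3 was at 0.56, Higd1a at 0.33, Cox4i2 at 0.39 and Ndufa4l2 at -0.48 on the log2 scale. Without mutant replicate 1, whose levels were nearest the controls, Bnip3, Higd1a and Cox4i2 were at 1.39, 0.87 and 1.29.

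In Mef2cAHF::Cre tissue, the direction depends on which genotype is believed. By the labels, Bnip3 had 100.2, 111 and 107 CPM in the 3 libraries labelled mutant and 116, 308 and 153 CPM in the 3 labelled control, a log2 fold change of -0.86 ± 0.30 (SE). By the column names the same libraries give 0.86. Higd1a had 22.3, 26.0 and 23.6 CPM in the labelled mutants and 24.4, 49.8 and 29.1 in the labelled controls, which is -0.52 ± 0.23 by the labels, or 0.52 if the column names are right. Bnip3 did not overlap between the groups, whereas Higd1a did, and both were pulled up by labelled control replicate 2.

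Cox4i2 had 2.84, 3.19 and 3.36 CPM in the labelled mutants and 3.03, 8.79 and 4.23 in the labelled controls (-0.77 ± 0.35 by the labels, or 0.77). Ndufa4l2 had 1.49, 2.93 and 1.25 against 1.36, 6.15 and 1.51 CPM (-0.69 ± 0.58 by the labels, or 0.69). For these genes too labelled control replicate 2 was the highest of the 6 libraries. Bnip3l had 159, 184 and 160 CPM in the labelled mutants and 150, 225 and 176 in the labelled controls (-0.13 ± 0.14, or 0.13). Fundc1 had 15.7 to 19.2 CPM against 14.3 to 16.1 (0.13 ± 0.11, or -0.13).

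Of all 16920 genes tested in this line, 23.9% did not overlap and 2.85% were called by edgeR, and nothing is read from the count of the 6. Without labelled control replicate 1, Bnip3 was at -1.12 by the labels. Without labelled control replicate 2 the values by the labels were -0.34 for Bnip3, -0.15 for Higd1a, -0.20 for Cox4i2 and 0.39 for Ndufa4l2.

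**Figure D3:**
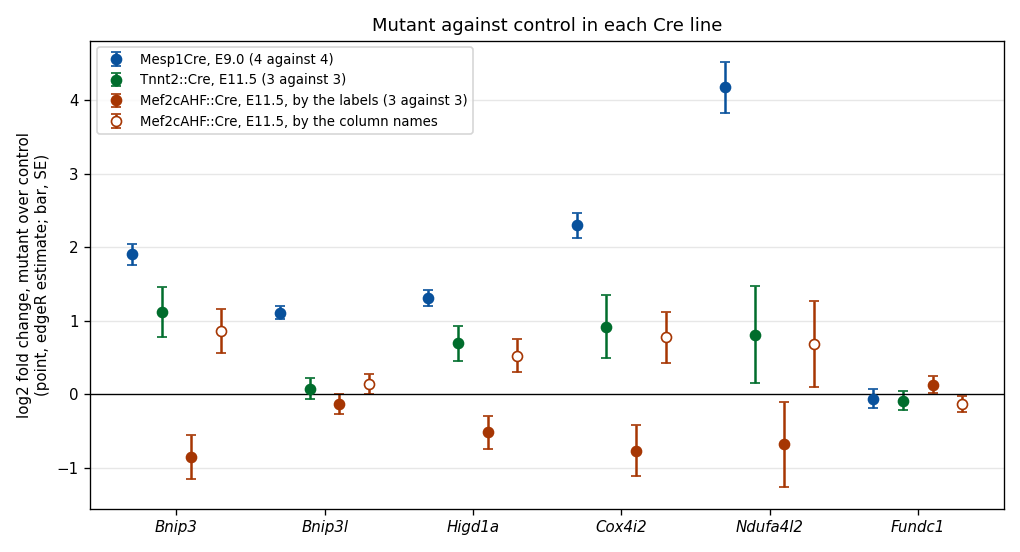
Log2 fold change of mutant over control (points, edgeR estimates; bars, SE) for the 6 genes in each Cre line, with Mef2cAHF::Cre drawn by the labels (filled) or the column names (open). The Mesp1Cre points run from -0.07 for Fundc1 to 4.18 for Ndufa4l2. The open Mef2cAHF::Cre points lie on the same side of 0 as the Tnnt2::Cre points for all 6 genes, close to 0 for Bnip3l and Fundc1. When single libraries were left out, the sign of Ndufa4l2 could turn in both of these lines. Since such values chose the 6 genes, nothing about which genotypes are right is read from these signs.

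Levels of erythroid marker RNA also differed between the libraries. Among 18 erythroid markers (globins, Alas2 and others), the summed level was 5533 to 18234 CPM in Mesp1Cre controls and 2020 to 7715 CPM in Mesp1Cre mutants, with overlap, and 6 of 17 tested markers fell and 0 rose (edgeR, FDR below 0.05). Without single libraries 1 to 10 fell: 1 without control replicate 4 or mutant replicate 3, 2 without control replicate 3 or mutant replicate 1 or 4, 3 without control replicate 1, 9 without control replicate 2 and 10 without mutant replicate 2. In Tnnt2::Cre it was 134488, 19729 and 44674 CPM in mutant replicates 1, 2 and 3 and 105433 to 163104 CPM in controls, and 0 of 18 markers were called by edgeR (0 at an unadjusted p of 0.05 and 0 by DESeq2), with a median log2 fold change of -1.03. Without mutant replicate 1, 16 of the 18 fell and the median was -2.03. The mutant with the fewest erythroid counts, replicate 2, was the one with the highest Bnip3, Higd1a, Cox4i2 and Ndufa4l2. In Mef2cAHF::Cre it was 7405 to 32471 CPM in the labelled controls, lowest in replicate 2, and 25425 to 48074 CPM in the labelled mutants, and 2 of 17 markers were called higher in the labelled mutants (0 without labelled mutant replicate 1 or 2, 1 without labelled control replicate 3, and 12 of 18 with no filter on low counts). Of the defining markers 1, Tspo2, was at 0 in both Mesp1Cre groups.

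The Mesp1Cre log2 fold changes without a covariate were 1.90 for Bnip3, 1.11 for Bnip3l, 1.31 for Higd1a, 2.30 for Cox4i2 and 4.18 for Ndufa4l2. With the erythroid markers' mean log2 CPM as a covariate they were 1.61, 0.97, 1.32, 2.20 and 4.25. In Tnnt2::Cre they were 0.30 for Bnip3, 0.20 for Higd1a, -0.21 for Cox4i2 and -1.13 for Ndufa4l2, and by the labels in Mef2cAHF::Cre they were -0.09, 0.01, 0.08 and 0.62. In bulk hearts, fewer cells of a type and less RNA per cell cannot be told apart.

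Other cell types were checked because Cox4i2 and Ndufa4l2 are known from pericytes. The summed level of 13 mural and smooth muscle cell markers was 2885 to 3610 CPM in Mesp1Cre controls and 2518 to 2889 in mutants, and 1 of 11 tested rose and 2 fell. None of the 13 was at 0 in any group. The 14 cardiomyocyte markers, which were high in all 20 libraries, summed to 43996 to 56556 CPM in Mesp1Cre controls and 54553 to 66474 in mutants, and 1 rose and 3 fell. Their mean log2 CPM did not rise, at 10.08 to 10.40 in the controls and 10.07 to 10.36 in the mutants. The median log2 fold change of these markers was -0.08. The 10 endothelial and endocardial markers summed to 579 to 685 CPM in Mesp1Cre controls and 790 to 897 in mutants, and 4 rose and 0 fell. Over all 15883 genes tested in this line, 980 rose and 841 fell. The part of these cell types in the differences of the 6 genes was not tested.

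Sex differed between the groups as well, read from 4 Y-linked genes: 10 of the 20 libraries were male, among them all 4 Mesp1Cre mutants but 2 of 4 Mesp1Cre controls. Labelled control replicate 2 was the only male library in Mef2cAHF::Cre, so a fit with sex there sets that library aside. With sex as a covariate the Mesp1Cre log2 fold change was 1.90 for Bnip3, 1.08 for Bnip3l, 1.20 for Higd1a, 2.31 for Cox4i2, 3.72 for Ndufa4l2 and -0.05 for the X-linked Fundc1.

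Most of the other genes of the hypoxia response rose in Mesp1Cre hearts as well. Of 35 such genes, 32 rose and 0 fell (edgeR, FDR below 0.05), with a median log2 fold change of 1.05 beside 0.00 over all genes tested. Of all genes tested, 6.17% rose. This list was chosen with earlier results of these data known, so its count is a description. Ndrg1, a stress-response gene, rose from 1.83 ± 1.13 to 18.7 ± 9.43 CPM (log2 fold change 3.37 ± 0.45, FDR = 0.000579), and Car12, a carbonic anhydrase, rose from 1.07 ± 0.278 to 10.4 ± 7.79 CPM (3.29 ± 0.64, FDR = 0.00601). Leaving out single libraries left 31 to 33 called. In Tnnt2::Cre 0 of the 35 were called by edgeR and 22 passed an unadjusted p of 0.05, with a median of 0.50. DESeq2 called 5 there, without mutant replicate 1 edgeR called 15, and without mutant replicate 2 the median was 0.31. With the erythroid covariate the median was 0.13 and 4 passed an unadjusted p of 0.05. In Mef2cAHF::Cre by the labels the median was -0.62 and 3 fell, all enzymes of glycolysis or its control: Pfkfb3 (-1.06 ± 0.20, FDR = 0.0330), Hk2 (-0.79 ± 0.17, FDR = 0.0472) and Eno1, which was outside the naming rule. Without labelled control replicate 1 or 2, 10 were called, with medians of -0.80 and -0.25, and without any 1 labelled mutant 0 were called. DESeq2 called 9, and 19 fell with no filter on low counts. With the erythroid covariate 1 fell and the median was -0.12. By the column names all these signs turn.

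Of 30 other mitophagy genes, 29 were tested in Mesp1Cre, and 6 rose and 1 fell, with a median log2 fold change of 0.04. Over all 15883 genes tested in this line, 980 (6.17%) rose and 841 fell. Gabarapl1, of the LC3 family, rose from 10.5 ± 4.04 to 17.6 ± 1.501 CPM (0.76 ± 0.22, FDR = 0.0417) and the kinase gene Ulk2 from 37.5 ± 3.96 to 54.5 ± 2.35 CPM (0.56 ± 0.10, FDR = 0.00491), whereas Atg5, which is needed to attach LC3 to membranes, fell from 16.2 ± 1.03 to 10.8 ± 2.33 CPM (-0.56 ± 0.17, FDR = 0.0453). These calls were fragile: leaving out single libraries gave 1 to 5 calls, with 1 without control replicate 2, 3 or 4, 2 without mutant replicate 1 or 4, 3 without mutant replicate 3 and 4 without control replicate 1. The erythroid and the sex covariate each gave 1 call, and a block for the code in the library names gave 4. In Mef2cAHF::Cre and in Tnnt2::Cre 0 were called by edgeR, with medians of 0.01 and -0.09. At an unadjusted p of 0.05, 6 and 4 passed, and DESeq2 called 1 and 0. Without labelled control replicate 2 in the former line and without mutant replicate 1 in the latter, 1 was called.

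Of 24 other mitochondrial genes with a role in the response to oxygen, 22 were tested in Mesp1Cre, and 4 rose and 2 fell, with a median of -0.01. The counts over all 15883 genes tested were 980 higher and 841 lower. Pdk1, the kinase that closes off pyruvate dehydrogenase in hypoxia, rose from 150.1 ± 25.8 to 344 ± 47.6 CPM (1.21 ± 0.12, FDR = 7.88e-05), and Fam162a, another mitochondrial protein induced by hypoxia, from 72.2 ± 10.2 to 162 ± 15.6 CPM (1.19 ± 0.11, FDR = 3.16e-05). Chchd4, of the import machinery of the intermembrane space, fell from 31.0 ± 3.42 to 16.5 ± 2.28 CPM (-0.89 ± 0.13, FDR = 0.00127). Ndufa4 was the other that fell. Leaving out single libraries gave 4 to 8 calls in this line, and with the erythroid or the sex covariate 2 rose and 1 fell. In Tnnt2::Cre 0 were called by edgeR (8 at an unadjusted p of 0.05, 2 by DESeq2, and 5 by edgeR without mutant replicate 1). In Mef2cAHF::Cre 3 were called, all higher by the labels, and Cox6a2, the heart and muscle form of a complex IV subunit, was the largest of them (1.03 ± 0.15, FDR = 0.0109). Without labelled mutant replicate 1, 1 was called, and DESeq2 called 6. Of the 6 relatives, 5 (those other than Fundc2) are also members of this list and Fundc2 is in the mitophagy list.

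**Figure D4:**
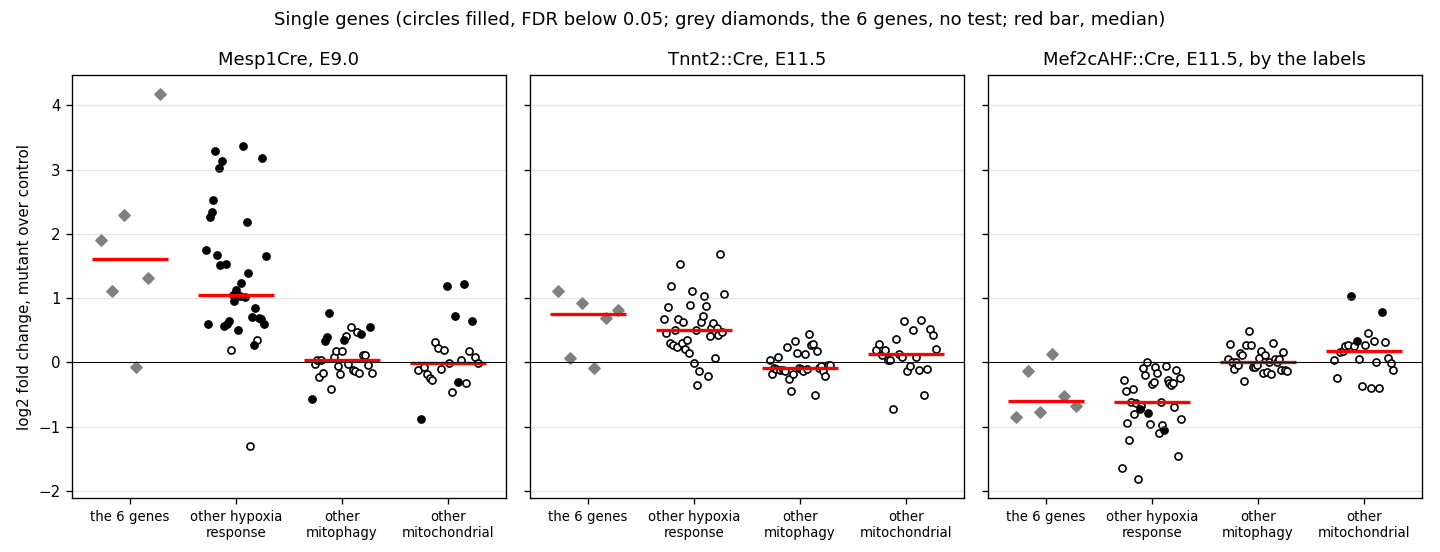
Log2 fold change of mutant over control for each of the 6 genes (grey diamonds, with no test) and each gene tested (circles; filled, edgeR FDR below 0.05) of 35 other hypoxia-response genes, 30 other mitophagy genes and 24 other mitochondrial genes, in the 3 Cre lines; red bars are medians. In Mesp1Cre the median was 1.05 for the hypoxia-response genes, 0.04 for the mitophagy genes and -0.01 for the mitochondrial genes.

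The genes most like each of the 6 over the 20 libraries, by Pearson's r of log2 CPM, were read as a description, since all share the same libraries and groups. For Bnip3 they were Ero1l (0.98), 4930583H14Rik (0.98) and Cox4i2 (0.97), and for Cox4i2 they were Pdk1 (0.97), Bnip3 (0.97) and Pkm2 (0.96). For Higd1a they were Nrn1 (0.97), Gpi1 (0.96) and Tpi1 (0.95), the last pair enzymes of glycolysis. Bnip3l was nearest to Ankrd37 (0.97), Map3k1 (0.96) and Kit (0.95), and Ndufa4l2 to AC093341.1 (0.93), Dpp6 (0.92) and Aldoc (0.91). Fundc1 had no close match, with AC117232.1 (0.66), Igsf1 (0.63) and Nfkbil2 (0.62) the nearest.

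After each group's mean was subtracted, so that only the scatter between libraries of a group was left, Bnip3 was nearest to Pfkl (0.97), 4930583H14Rik (0.96) and Pdk1 (0.95), Bnip3l to Ankrd37 (0.93), Ccng2 (0.89) and Atp11b (0.89), and Higd1a to Bnip3 (0.92), Tpi1 (0.91) and Fam162a (0.90). Cox4i2 was nearest to Pkm2 (0.94), Ak3l1 (0.93) and Kdm6b (0.93), Ndufa4l2 to Igfbp3 (0.91), Tmem100 (0.87) and Galk1 (0.87), and Fundc1 to AC164597.2 (0.82), G630016D24Rik (0.79) and 2310039H08Rik (0.78). Among themselves the 5 genes correlated at 0.60 to 0.92 after this step, the lowest being Bnip3l with Cox4i2 and the highest Bnip3 with Higd1a. Fundc1 was at -0.16 to -0.08 with the 5 others. By Spearman's rho, which uses ranks, the 5 genes correlated among themselves at 0.51 to 0.83 after this step, with the same lowest and highest pairs.

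A comparison of control libraries by stage gives a contrast that did not choose the genes. Between E9.0 and E11.5 control whole hearts, Bnip3 fell from 138 ± 23.7 CPM (n = 4) to 90.5 ± 17.8 (n = 3), a log2 fold change of -0.64 ± 0.15 (edgeR, FDR = 0.00534), without overlap. In a fit of all 6 groups the call was lost (FDR = 0.117). It was the only 1 of the 6 called, beside 38.3% of 16697 genes, and 45.4% of all genes did not overlap. The stages also differ in Cre line, so stage and line cannot be told apart, and these controls are the same libraries that serve the mutant comparisons.

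Ndufa4l2 stood at 0.917 ± 0.525 CPM at E9.0 and 2.29 ± 0.759 at E11.5, also without overlap (1.28 ± 0.48, FDR = 0.0561). It was called without Mesp1Cre control replicate 4 (1.70, FDR = 0.0160) and by DESeq2 (FDR = 0.0337), and on log2(FPKM + 0.1) (limma, FDR = 0.0428). Bnip3l (0.04 ± 0.09, FDR = 0.760), Higd1a (-0.24 ± 0.13, FDR = 0.184), Cox4i2 (-0.23 ± 0.26, FDR = 0.517) and Fundc1 (-0.06 ± 0.13, FDR = 0.756) were not called. Among the relatives, Ndufa4 (0.71 ± 0.10, FDR = 0.000305), Fundc2 (0.67 ± 0.10, FDR = 0.000358) and Cox4i1 (0.39 ± 0.10, FDR = 0.0107) rose, while Higd2a was at 0.08 ± 0.14 (FDR = 0.702). Over all 16697 genes tested, 3268 were called higher at E11.5 and 3133 lower. Of the other mitophagy genes 16 rose and 2 fell (median 0.40), led by Park2 (2.14 ± 0.61, FDR = 0.0164) and Pink1 (1.99 ± 0.19, FDR = 1.64e-05), the ligase and the kinase of the receptor-independent route. Park2 had few reads, at 0.120 ± 0.0589 CPM (SD) at E9.0 and 0.551 ± 0.156 at E11.5. Of the other mitochondrial genes 10 rose and 2 fell (median 0.33), and of the other hypoxia-response genes 6 rose and 9 fell (median -0.06). All 18 erythroid markers were higher at E11.5 (median log2 fold change 3.21). With the erythroid covariate 1 gene of all tested was called and Bnip3 was at 0.30, so the stage and the erythroid marker level cannot be told apart in these libraries.

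Within E11.5, the right ventricle and outflow tract of the Mef2cAHF::Cre labelled controls was set against the whole hearts of the Tnnt2::Cre controls. Bnip3 was higher in the former, at 192 ± 102 against 90.5 ± 17.8 CPM (n = 3 each, log2 fold change 1.09 ± 0.31, FDR = 0.0184), and was the only 1 of the 6 called, beside 39.8% of 17042 genes, with 53.4% not overlapping. The call was lost by DESeq2 (FDR = 0.0580) and without Tnnt2::Cre control replicate 1 (0.95, FDR = 0.0735) or replicate 2 (1.09, FDR = 0.0519). With the erythroid covariate the direction turned (-0.88, FDR = 0.391). Without labelled control replicate 2, Bnip3 was at 0.57 (FDR = 0.0259) and Higd1a was called too, at -0.45 (FDR = 0.0308).

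When the libraries labelled mutant were taken as the controls, as the column names have it, Bnip3 was at 0.23 ± 0.12 (FDR = 0.153) and Higd1a instead was lower in the right ventricle and outflow tract, at 24.0 ± 1.85 against 36.5 ± 5.27 CPM (-0.60 ± 0.11, FDR = 0.00169). This was 1 of the 6, beside 38.6% of 17271 genes. Whichever reading is right, the other of these fits used mutant libraries. By the labels Higd1a was at -0.08 ± 0.23 (FDR = 0.819). Cox4i2 (0.65 ± 0.37 by the labels, FDR = 0.186), Ndufa4l2 (0.41 ± 0.53, FDR = 0.564), Bnip3l (0.03 ± 0.15, FDR = 0.895) and Fundc1 (-0.08 ± 0.12, FDR = 0.620) were not called under either reading. No member of the 6 therefore had a tissue difference that held under both readings.

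The relatives gave the same answer under both readings. By the labels Cox4i1 (-0.90 ± 0.11, FDR = 0.000301), Ndufa4 (-1.08 ± 0.12, FDR = 0.000242), Higd2a (-0.82 ± 0.13, FDR = 0.000953) and Fundc2 (-0.47 ± 0.10, FDR = 0.00437) were all lower in the right ventricle and outflow tract. By the column names they were at -0.74, -0.75, -0.55 and -0.33 (FDR = 0.0144 or less for each). Of the other mitochondrial genes 1 rose and 14 fell by the labels (median -0.79), and of the other mitophagy genes 2 rose and 14 fell (median -0.32), with Map1lc3a lowest (-1.87 ± 0.14, FDR = 4.44e-05). By the column names 1 rose and 16 fell (median -0.50) and 2 rose and 14 fell (median -0.28). On log2(FPKM + 0.1) by the labels (limma), the median of all genes was at 0.22. There 3 mitophagy genes rose and 6 fell (median -0.10), and 1 mitochondrial gene rose and 14 fell (median -0.56). Of the other hypoxia-response genes 10 rose and 1 fell by the labels (median 0.35), whereas 5 rose and 11 fell by the column names (median -0.11). All 18 erythroid markers (median -2.44) and 9 of 14 cardiomyocyte markers were lower there by the labels, and 17 of the 18 erythroid markers by the column names (median -1.56). With the erythroid covariate 0 genes of the 3 lists were called by the labels (edgeR), with 14, 8 and 16 hypoxia-response, mitophagy and mitochondrial genes at an unadjusted p of 0.05. The tissues also differ in Cre line, and tissue, line and cell content cannot be told apart.

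**Figure D5:**
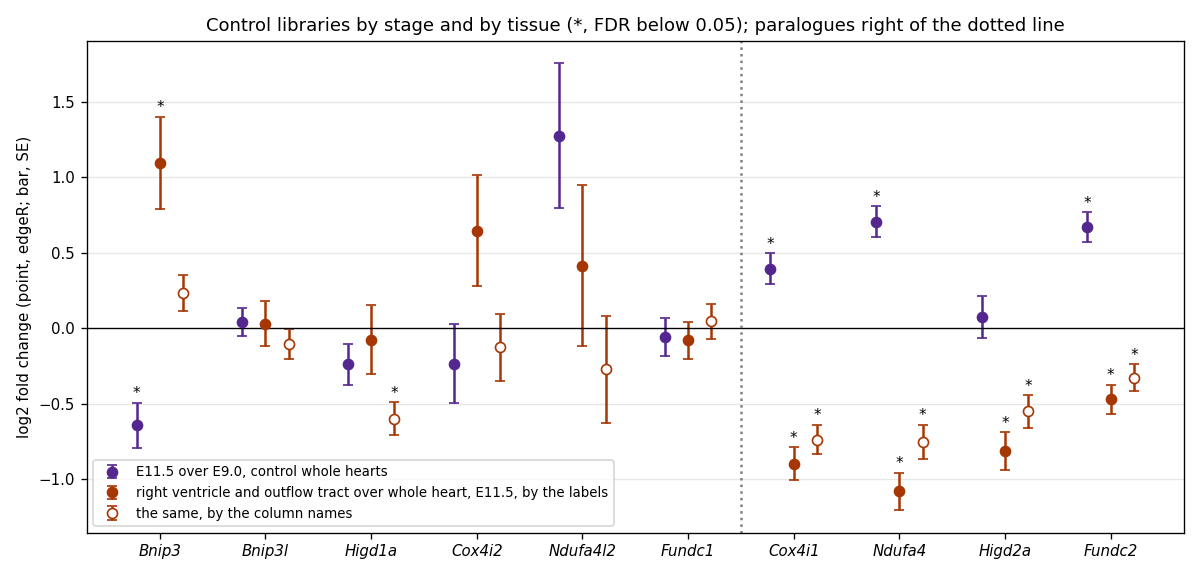
Log2 fold change (points, edgeR estimates; bars, SE) of the 6 genes and, right of the dotted line, 4 of their relatives between control libraries, by stage and by tissue, with the tissue comparison by the labels (filled) or the column names (open); asterisks mark an FDR below 0.05. Bnip3 is called at -0.64 by stage, and the 4 relatives are called lower in the right ventricle and outflow tract under both readings.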

How the data were processed

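Total RNA from 20 dissected embryonic heart samples was sequenced by the authors, who aligned the reads to mm9 (TopHat2 2.0.8b per the submitters' processing notes), assigned them to genes and deposited counts and FPKM per library in 1 table. The strand setting of the counting and the treatment of reads with several matches are not given in the sources used here, and the paper and the labels name different library kits. The deposited counts are whole numbers and were used unscaled, and the deposited FPKM were used for levels between genes. A further 20 columns of values (variance-corrected log2 values from the authors' comparison software) were not used.

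Each Cre line was fitted alone with edgeR 4.0.16 (quasi-likelihood F test, TMM, filterByExpr; R 4.3.3), and an FDR below 0.05 over all genes tested was called. CPM were computed with TMM factors over the 20 libraries, and log2 CPM with a prior count of 2. The fitting code was run on simulated counts, drawn with the same variation between libraries for every gene. Such counts hold no outlying libraries and no shifts in cell content, so they check the code and not the calls made here. Groups followed the sample titles. The 6 genes and all gene lists were chosen with earlier results of these data known. The genes named were the 6, their relatives, Kmt2d, the 3 most correlated genes of each, and the 2 called genes of each list with the largest change in each direction. Alternatives were DESeq2 1.42.0, its size factors, no filter on low counts, limma 3.58.1 on log2(FPKM + 0.1) and log2(FPKM + 1), a fit of all 6 groups, erythroid, sex and replicate-number terms, and leaving out each library. Counts of list genes under these settings were added after seeing the data. Sequence copies were found with blastn 2.17.0. No pair of libraries of a group agreed within sampling noise (chi-square per degree of freedom 8.74 or more).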

Additional observations from a re-analysis of the deposited data

Results flagged for a closer look

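In the Mesp1Cre controls, Higd1a in replicate 1 (51.4 CPM) lay further from the other 3 libraries than Dixon's test allows for 4 values. It was found among 12 groups of 4 libraries (6 genes, both Mesp1Cre groups), and such a test is expected to mark about 5% of groups by chance.

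Bnip3 was higher in every Mesp1Cre mutant (log2 fold change 1.90) and in every Tnnt2::Cre mutant (1.11) than in the controls of that line, and by the labels lower in every Mef2cAHF::Cre mutant (-0.86). The difference between the lines was not tested, and by the column names the Mef2cAHF::Cre value is 0.86.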

How the results depend on the processing

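In Mesp1Cre the number of all genes called (1821) was 3593 in the fit of 6 groups, 427 with the erythroid covariate, 899 with the sex covariate and 1052 to 2161 when single libraries were left out. In Mef2cAHF::Cre (482 genes) it was 1083 by DESeq2, 1311 with all genes of at least 1 count, 291 and 253 on log2(FPKM + 0.1) and log2(FPKM + 1), 129 in the fit of 6 groups, 221 with the erythroid covariate and 75 to 662 when single libraries were left out. In Tnnt2::Cre (50 genes) it was 360 by DESeq2, 120 with all genes of at least 1 count, 22 and 19 on FPKM, 82 in the fit of 6 groups, 118 with the erythroid covariate, 17 with the sex covariate and 4 to 896 when single libraries were left out. With the replicate block, 1384, 517 and 28 genes were called in Mesp1Cre, Mef2cAHF::Cre and Tnnt2::Cre. The labels do not say that a number marks a pair, and the correlation of same-numbered libraries ran from -0.03 to 0.13. With so few libraries these correlations cannot decide whether the numbers mark pairs, and the main fits treated the libraries as unpaired. The Mesp1Cre library names also carry a code whose meaning the labels do not give. Controls and mutants of the same number share this code, and with it as a block 1482 genes were called.

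By the column names the Mef2cAHF::Cre values were 0.86 for Bnip3, 0.13 for Bnip3l, 0.52 for Higd1a, 0.77 for Cox4i2, 0.69 for Ndufa4l2 and -0.13 for Fundc1. By stage, 2 members were called by DESeq2 and on both FPKM scales, 0 in the fit of 6 groups and with the erythroid covariate, and 1 to 2 without single libraries. The erythroid covariate left 1 gene called and put Bnip3 at 0.30, Bnip3l at -0.29, Cox4i2 at 0.32, Ndufa4l2 at -1.58 and Fundc1 at 0.080. Bnip3l was at -0.0068 and -0.0065 on the 2 FPKM scales. Without single libraries Bnip3l ran from -0.054 to 0.13 and Fundc1 from -0.11 to 0.023. By tissue, 0 members were called by DESeq2 and with the erythroid covariate (53 genes) and 0 to 2 without single libraries. That covariate put Bnip3 at -0.88, Bnip3l at -0.49, Cox4i2 at -1.52 and Ndufa4l2 at -3.38. On log2(FPKM + 0.1) and log2(FPKM + 1), Higd1a was at 0.089 and 0.089 and Fundc1 at 0.14 and 0.13. By the column names Bnip3l was at -0.11, Cox4i2 at -0.13, Ndufa4l2 at -0.27 and Fundc1 at 0.046. Without single libraries Bnip3l ran from -0.15 to 0.16, Higd1a from -0.45 to 0.12 and Ndufa4l2 from -0.66 to 0.76. The cause of these changes was not tested. Depth limits Ndufa4l2 most, with 9 reads in its lowest library.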
